A study of Homo sapiens with 3 samples.

Results

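Amino acid transporter genes were examined in Caki-1, a cell line established from human renal carcinoma, after depletion of RBCK1 (HOIL-1), a subunit of the ligase that joins ubiquitin into linear chains. The 10 genes, *SLC7A5*, *SLC3A2*, *SLC7A1*, *SLC7A6*, *SLC1A4*, *SLC1A5*, *SLC38A1*, *SLC38A2*, *SLC43A1* and *SLC6A9*, were taken by symbol from a table of 44591 genes, and all 10 were found in it. Cells were transfected with a non-targeting siRNA (si-Control) or else si-RBCK1 #1 or si-RBCK1 #2, different siRNAs against the same transcript, and RNA was taken after 48 h. No other allele or agent distinguished the cultures, and the general transfection protocol used siRNA at 10 nmol/L. Each condition was sequenced as 1 library, so none of the differences could be compared with a spread between replicates, and the intervals given cover counting error only. RNA came from whole cultures, in which fewer cells expressing a gene and less RNA per cell cannot be told apart. The siRNAs were not treated as replicates, and both comparisons share the si-Control library.

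Amino acids carry charges and cross the plasma membrane only through carriers. *SLC7A5* (LAT1) and *SLC7A6* (y+LAT2) are light chains that must pair with the heavy chain 4F2hc, encoded by *SLC3A2*, to reach the cell surface, where LAT1 brings in leucine and other large neutral amino acids in exchange for intracellular ones such as glutamine. Glutamine and small neutral amino acids enter through *SLC1A5* (ASCT2), *SLC38A1* (SNAT1) and *SLC38A2* (SNAT2), so these carriers feed the exchange. Leucine that enters by this route is sensed by mTORC1, a kinase complex that promotes growth, and several of the carrier genes are known targets of ATF4, the transcription factor of the amino acid response.

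The sense strands of the siRNAs are shown because they define the groups, with the letters complementary to positions 2 to 8 of the guide strand, the seed, in capitals.
si-RBCK1 #1: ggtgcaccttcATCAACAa
si-RBCK1 #2: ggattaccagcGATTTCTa
The seed site of si-RBCK1 #1, ATCAACA, was found in the longest protein-coding transcript (GENCODE release 29) of 1 of the 10 transporter genes, *SLC43A1*, and of 23.8% of the 10553 protein-coding genes searched. That of si-RBCK1 #2, GATTTCT, was found in 3, *SLC7A1*, *SLC7A6* and *SLC38A1*, and in 29.2% of the genes searched. *SLC7A5*, *SLC3A2*, *SLC1A4*, *SLC1A5*, *SLC38A2* and *SLC6A9* held neither seed site on the sense strand.

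The libraries had been scaled by 36926834 to 40442939 reads, as found from the steps between low values. *RBCK1*, the targeted gene (chromosome 20, 388694 to 412783, plus strand), measured 33.3 RPKM in si-Control cells, 9.97 RPKM after si-RBCK1 #1 and 12.3 RPKM after si-RBCK1 #2, which is 29.9% and 36.8% of si-Control. RPKM, the unit inferred from the steps of the values, is reads per kilobase of gene with the library total scaled to a common size. Of 8 renal markers, *PAX8*, *KRT8*, *KRT18* and *VIM* were expressed, while *PAX2*, *CA9*, *EPCAM* and *CDH16* were below 1 RPKM in every library. *PAX8* was lower after depletion, at 124, 82.5 and 107 RPKM in the same order, while the keratins *KRT8* (65.6, 172 and 238 RPKM) and *KRT18* (95.3, 142 and 172 RPKM) and vimentin, *VIM* (664, 1512 and 1392 RPKM), were higher. The summed level of the 8 was 950 RPKM in si-Control cells, 1910 RPKM after si-RBCK1 #1 and 1909 RPKM after si-RBCK1 #2, most of it *VIM*, and its part in the values below was not tested. Of 8 markers of blood, endothelial and stromal cells, 6 were below 1 RPKM in every library, with *CD3E* at 0 in all. The others were *CD68*, at 41.8, 51.0 and 52.3 RPKM, and *COL1A1*, at 4.68, 3.21 and 4.41 RPKM. The sum of the 8 was 47.3, 54.9 and 57.4 RPKM, most of it *CD68*.

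In control cells 5 of the transporter genes were among the well expressed genes. *SLC7A5* and *SLC3A2* were both at 130 RPKM, above 96.4% of the 10775 protein-coding genes with an average of 1 RPKM or more. They were followed by *SLC38A2* (99.5 RPKM), *SLC1A5* (82.7 RPKM), *SLC38A1* (63.0 RPKM), *SLC7A1* (33.5 RPKM), *SLC7A6* (11.99 RPKM), *SLC1A4* (7.45 RPKM), *SLC6A9* (2.35 RPKM) and *SLC43A1* (0.493 RPKM). In this order only *SLC7A5* (95% Poisson interval 129 to 132 RPKM) and *SLC3A2* (128 to 133 RPKM) did not differ beyond counting error. After si-RBCK1 #1 the order differed, with *SLC7A5* in position 4. After si-RBCK1 #2 *SLC7A5* stood in position 2. There only *SLC7A5* and *SLC3A2*, not separable in si-Control cells, had changed places. *SLC3A2* was the highest with both siRNAs. The average of the 3 libraries was 1 RPKM or more for 9 of the 10 genes, and *SLC43A1* was below it.

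**Figure D1:**
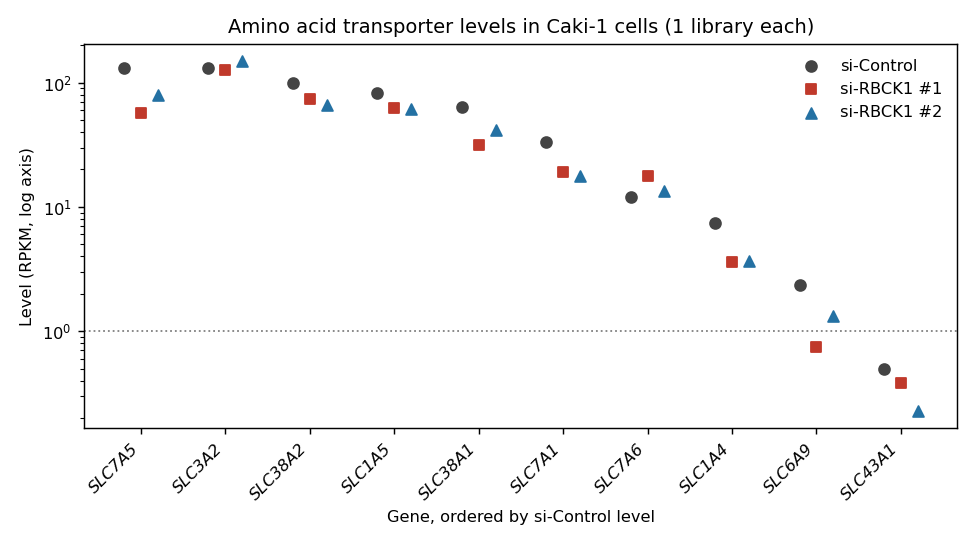
Level of each of the 10 genes (RPKM, log axis) in the si-Control, si-RBCK1 #1 and si-RBCK1 #2 libraries, with 1 point per library and a dotted line at 1 RPKM. The si-RBCK1 points lie below the si-Control point for most genes, above it for *SLC7A6*, and on either side of it for *SLC3A2*.

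Most of the transporter genes were lower with either siRNA, on the scale of log2(RPKM + 1), on which differences of genes near 0 come out smaller. With si-RBCK1 #1, 9 of the 10 had a ratio to si-Control below 0, against 48.4% of the 12403 genes with an average of 1 RPKM or more, and the median log2 ratio was -0.61 against 0.02 over all genes. With si-RBCK1 #2, 8 of the 10 were below 0, against 46.4% of all genes, and the median was -0.56 against 0.03. The 10 genes and the lists below were chosen with earlier results of these data known. Their shares beside those of all genes are therefore a description only. The 10 include *SLC43A1*, which averaged below 1 RPKM and had a ratio below 0 with each siRNA. Over the 9 genes that averaged 1 RPKM or more, the medians were -0.79 and -0.58. Ratios ran from -1.20 (*SLC7A5*) to 0.52 (*SLC7A6*) for si-RBCK1 #1 and from -0.88 (*SLC7A1*) to 0.18 (*SLC3A2*) for si-RBCK1 #2. The summed level of the 10 genes was 562 RPKM in si-Control cells, 390 RPKM after si-RBCK1 #1 and 433 RPKM after si-RBCK1 #2, or 0.135%, 0.0905% and 0.102% of all RPKM of the library.

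Few of the differences reached 2-fold. At least 1.5-fold lower were 5 genes after si-RBCK1 #1 (*SLC7A5*, *SLC38A1*, *SLC6A9*, *SLC1A4* and *SLC7A1*), against 11.6% of all genes, and 4 after si-RBCK1 #2 (*SLC7A1*, *SLC1A4*, *SLC7A5* and *SLC38A2*), against 9.32%. None of the 10 was at least 1.5-fold higher with either siRNA, where 12.1% and 11.3% of all genes were. At least 2-fold lower was 1 gene after si-RBCK1 #1, *SLC7A5*, against 3.27% of all genes, and 0 after si-RBCK1 #2, against 2.27%. None was at least 2-fold higher, against 2.91% and 2.50% of all genes. The 2-fold counts depended on the pseudocount. On reads alone, without it, 4 genes were at least 2-fold lower after si-RBCK1 #1 (*SLC7A5*, *SLC38A1*, *SLC1A4* and *SLC6A9*), against 6.19% of the 12359 genes with reads in every library. With si-RBCK1 #2 these were 2 genes (*SLC1A4* and *SLC43A1*, the latter from few reads and below the level limit of the genes it is set against), against 4.48%.

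Among the heteromeric transporters the gene of the light chain LAT1 was lower, while that of the heavy chain stayed close to its control level. *SLC7A5* (chromosome 16, 87863622 to 87903105, minus strand, in the hg19 coordinates of the table) was at 130 RPKM in si-Control cells, 56.4 RPKM after si-RBCK1 #1 and 79.5 RPKM after si-RBCK1 #2. Both depleted libraries were lower than the control, at 43.2% and 61.0% of it, and si-RBCK1 #1 was the lowest. The log2 ratios were -1.20 and -0.71, and on reads alone -1.21 (95% counting interval, exact Clopper-Pearson, -1.24 to -1.18) and -0.71 (-0.75 to -0.68). Of all genes tested, 1.70% and 6.12% had a lower ratio. *SLC3A2* (chromosome 11, 62623484 to 62656355, plus strand) was at 130, 125 and 148 RPKM in the same order. It was slightly lower after si-RBCK1 #1 (log2 ratio -0.06) and slightly higher after si-RBCK1 #2 (0.18), with intervals on reads of -0.09 to -0.02 and 0.15 to 0.21.

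The ratio of *SLC7A5* to *SLC3A2* RPKM was thus 1.00 in si-Control cells, 0.450 after si-RBCK1 #1 and 0.538 after si-RBCK1 #2. *SLC7A6*, the light chain that exchanges cationic for neutral amino acids (chromosome 16, 68298419 to 68335726, plus strand), was at 11.99, 17.6 and 13.3 RPKM. It was higher than si-Control in both depleted libraries, with log2 ratios of 0.52 and 0.14 and intervals on reads of 0.49 to 0.62 and 0.08 to 0.23. *SLC7A6* shares 1209 bases of the table's coordinates with *SLC7A6OS* on the opposite strand, which was at 3.34, 5.93 and 5.44 RPKM. The strand setting of the counting is not given in the sources used here, so the part of shared reads was not tested.

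Together the 6 light chain genes that pair with 4F2hc (*SLC7A5*, *SLC7A6*, *SLC7A7*, *SLC7A8*, *SLC7A10* and *SLC7A11*), grouped after their values were seen, summed to 166 RPKM in si-Control cells, 87.6 RPKM after si-RBCK1 #1 and 105 RPKM after si-RBCK1 #2. The sum over *SLC3A2* was 1.27, 0.700 and 0.708. *SLC7A5* made up 78.6%, 64.3% and 76.0% of the light chain RPKM, and *SLC7A6* 7.23%, 20.1% and 12.8%. *SLC7A8* (at most 0.0354 RPKM) and *SLC7A10* (at most 0.0278 RPKM) were near 0 in every library.

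**Figure D2:**
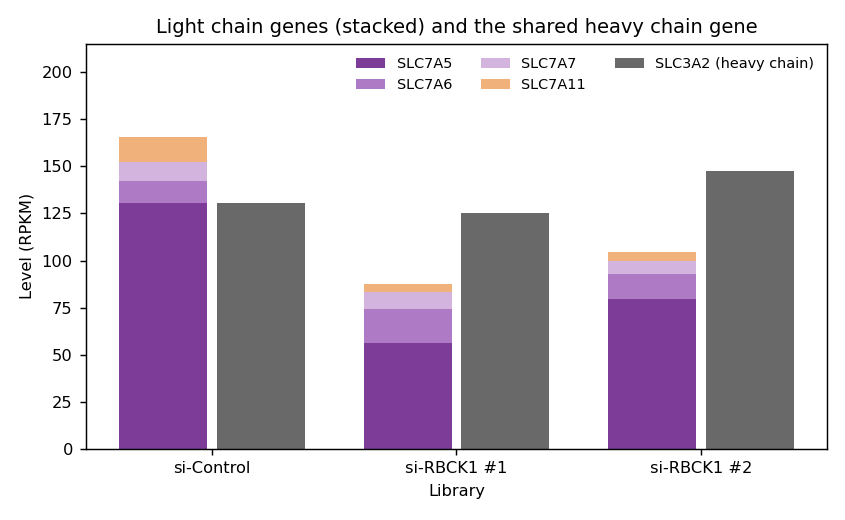
Levels (RPKM) of the light chain genes *SLC7A5*, *SLC7A6*, *SLC7A7* and *SLC7A11*, stacked, beside the level of the heavy chain gene *SLC3A2*, in each of the 3 libraries. The light chain stack is taller than the *SLC3A2* bar in si-Control cells and shorter than it in both si-RBCK1 libraries.

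*SLC43A1* (LAT3), which carries branched-chain amino acids without a heavy chain (chromosome 11, 57252004 to 57283192, minus strand), was close to the limit of detection. It had 48 reads in si-Control cells, 41 after si-RBCK1 #1 and 22 after si-RBCK1 #2, or 0.493, 0.384 and 0.229 RPKM. The counting interval included 0 after si-RBCK1 #1 (log2 ratio on reads -0.36, -0.996 to 0.27) and did not after si-RBCK1 #2 (-1.10, -1.90 to -0.35).

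*SLC7A1* (CAT1), the main importer of arginine and lysine in many cell types, was lower by a similar amount with either siRNA. On chromosome 13 from 30083551 to 30169825 on the minus strand, it was at 33.5 RPKM in si-Control cells, 18.9 RPKM after si-RBCK1 #1 and 17.8 RPKM after si-RBCK1 #2. The depleted libraries were at 56.4% and 53.1% of the control, with log2 ratios of -0.79 and -0.88 and intervals on reads of -0.87 to -0.78 and -0.96 to -0.86. For si-RBCK1 #2, 3.46% of all genes tested had a lower ratio.

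The carriers of glutamine and small neutral amino acids were lower with either siRNA. *SLC38A2*, whose product is induced in many cells when amino acids are scarce (chromosome 12, 46751971 to 46766645, minus strand), was at 99.5, 73.8 and 65.6 RPKM, with log2 ratios of -0.43 and -0.59. *SLC1A5*, an exchanger of glutamine, serine and other neutral amino acids (chromosome 19, 47278140 to 47291842, minus strand), was at 82.7, 62.2 and 61.6 RPKM, with log2 ratios of -0.40 and -0.42. The depleted libraries of *SLC1A5* were nearly equal, at 75.3% and 74.5% of the control.

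*SLC38A1*, a sodium-coupled glutamine importer (chromosome 12, 46576838 to 46663208, minus strand), was at 63.0 RPKM in si-Control cells, 31.3 RPKM after si-RBCK1 #1 and 41.9 RPKM after si-RBCK1 #2. It was lowest after si-RBCK1 #1, where the log2 ratio of -0.99 lay just inside the 2-fold limit and that on reads, -1.01 (-1.04 to -0.98), just beyond it. With si-RBCK1 #2 the log2 ratio was -0.58. *SLC1A4* (ASCT1), which exchanges serine, alanine and other small neutral amino acids (chromosome 2, 65215579 to 65250999, plus strand), was at 7.45, 3.60 and 3.64 RPKM. The depleted libraries were both near 48% of the control (48.3% and 48.9%), with log2 ratios of -0.88 and -0.86, and on reads alone -1.05 (-1.18 to -0.92) and -1.03 (-1.17 to -0.90).

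The summed level of these 4 carriers was 253 RPKM in si-Control cells, 171 RPKM after si-RBCK1 #1 and 173 RPKM after si-RBCK1 #2. The share of *SLC38A1* in that sum was 24.9%, 18.3% and 24.3%, and that of *SLC1A4* was 2.95%, 2.10% and 2.11%.

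*SLC6A9* (GLYT1), the sodium- and chloride-coupled glycine transporter (chromosome 1, 44462155 to 44497164, minus strand), had a low level. Its 162 reads in si-Control cells gave 2.35 RPKM, the 56 reads of si-RBCK1 #1 gave 0.743 RPKM, and the 89 reads of si-RBCK1 #2 gave 1.31 RPKM. Both depleted libraries were below the control, with log2 ratios of -0.94 and -0.54. On reads alone the ratios were -1.66 (-2.13 to -1.22) and -0.84 (-1.23 to -0.46), so the pseudocount moved them by more than that of any other of the 10 genes above the level limit. *CCDC24* overlaps it by 46 bases on the opposite strand and was at 4.35, 1.98 and 3.07 RPKM, and the part of shared reads was not tested.

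**Figure D3:**
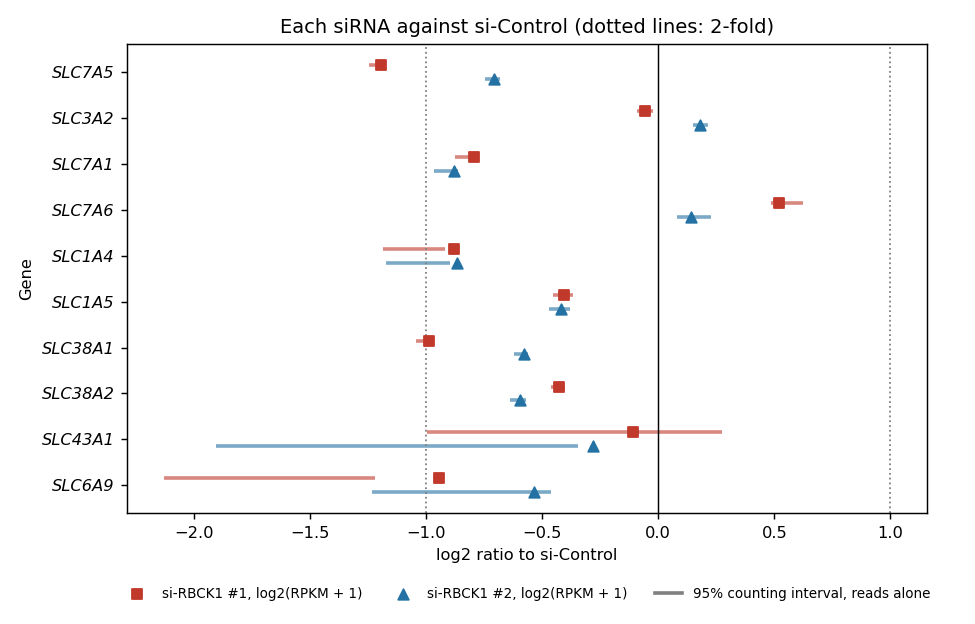
Log2 ratio of each siRNA library to si-Control for the 10 genes, on the log2(RPKM + 1) scale (points), with the 95% counting interval of the ratio of reads without the pseudocount (bars) and dotted lines at 2-fold. Intervals are narrow for the highly expressed genes and wide for *SLC43A1* and *SLC6A9*, and the pseudocount puts the points of *SLC1A4*, that of *SLC6A9* for si-RBCK1 #1 and that of *SLC43A1* for si-RBCK1 #2 to the right of their bars.

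The siRNA libraries differed from each other in some of the genes and not in others. On reads, *SLC7A5* was higher after si-RBCK1 #2 than after si-RBCK1 #1 by 0.50 on the log2 scale (counting interval 0.46 to 0.53), *SLC38A1* by 0.42 (0.39 to 0.45), *SLC3A2* by 0.24 (0.21 to 0.27) and *SLC6A9* by 0.82 (0.32 to 1.33). *SLC7A6* differed by -0.40 (-0.47 to -0.33), *SLC38A2* by -0.17 (-0.21 to -0.14) and *SLC7A1* by -0.09 (-0.14 to -0.03). Differences of *SLC1A4* (0.02, -0.14 to 0.17), *SLC1A5* (-0.01, -0.06 to 0.03) and *SLC43A1* (-0.74, -1.56 to 0.04) did not exceed counting error. *RBCK1* itself was higher after si-RBCK1 #2 by 0.30 (0.20 to 0.39). The spread between cultures is unknown, so these intervals do not say whether the siRNAs act differently.

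Sequences around the starts of the transporter genes were searched for TGATGNAA, the core of the C/EBP-ATF response element through which ATF4 acts, and for CACGTG, the E-box bound by MYC and related factors, on both strands. RefSeq windows (GRCh38.p14) from 250 bases before to 50 bases after each start were used, of which the 10 genes have 17. TGATGNAA was found in 5 of the 17 windows, against 3.62% of all 35116 windows, and CACGTG in 3 of 17, against 7.26%. Windows of a gene are its annotated starts. By gene TGATGNAA was found for 5 of 10, against 4.46% of 27305 genes, and CACGTG for 3 of 10, against 8.77%. *SLC7A5*, *SLC7A6*, *SLC38A2*, *SLC43A1* and *SLC6A9* had no match to TGATGNAA. Each match to TGATGNAA is shown within 30 bases on the strand of the gene, with the match in capitals.
SLC1A4: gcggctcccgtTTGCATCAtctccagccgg
SLC1A5: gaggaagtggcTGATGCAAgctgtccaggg
SLC38A1: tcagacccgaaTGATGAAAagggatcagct
SLC7A1: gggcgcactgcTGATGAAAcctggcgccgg
SLC3A2: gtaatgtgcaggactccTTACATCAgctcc
These lie at chr2:64989381-64989410 on the plus strand, chr19:46784893-46784922 on the minus strand, chr12:46266502-46266531 on the minus strand, chr13:29595663-29595692 on the minus strand and chr11:62881719-62881748 on the plus strand. The first base of the match is at -7 for *SLC1A4*, -97 for *SLC1A5* and -4 for *SLC38A1* from the annotated start, and at 8 and 38 after it for *SLC7A1* and *SLC3A2*. Those of *SLC1A4* and *SLC3A2* are in the opposite orientation. *SLC1A4*, *SLC1A5*, *SLC38A1* and *SLC3A2* have other annotated starts without a match, and which start these cells use was not measured.

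CACGTG was found for *SLC7A5* (at -130), *SLC43A1* (at -112) and a further start of *SLC1A5* (at -50). The 250 bases before the start of *SLC7A5*, the 1 gene at least 2-fold lower on the log2(RPKM + 1) scale after si-RBCK1 #1, are shown with CACGTG in capitals (chr16:87869508-87869757, minus strand, GRCh38.p14). G and C make up 79.6% of them.
SLC7A5: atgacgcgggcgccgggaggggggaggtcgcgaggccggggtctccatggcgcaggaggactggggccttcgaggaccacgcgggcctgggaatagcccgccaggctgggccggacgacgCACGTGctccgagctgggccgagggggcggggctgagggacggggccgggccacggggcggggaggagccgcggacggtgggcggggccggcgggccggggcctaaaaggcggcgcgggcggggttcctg
A match is a description of the letters only, and binding was not measured.

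Other amino acid transporters of the plasma membrane were mostly silent. Of 29 further genes, 24 had a mean below 1 RPKM, and the 5 above it had a median log2 ratio of -0.90 for si-RBCK1 #1, where 4 of the 5 were lower, and of -0.56 for si-RBCK1 #2, again with 4 of the 5 lower. Over all 29, most of them near 0 RPKM, the medians were 0 and -0.01. Only *SLC6A15*, *SLC7A7* and *SLC7A11* averaged 5 RPKM or more, and their medians, -0.90 and -1.12, are the values of *SLC6A15*. *SLC7A11* (xCT), the cystine and glutamate exchanger that also pairs with 4F2hc, was at 13.4 RPKM in si-Control cells, 4.21 RPKM after si-RBCK1 #1 and 4.76 RPKM after si-RBCK1 #2. Its log2 ratios of -1.47 and -1.32 were larger in size than that of any of the 10 genes. *SLC6A15*, a sodium-coupled carrier of branched-chain amino acids and proline, was at 15.5, 7.86 and 6.62 RPKM (-0.90 and -1.12). *SLC7A2* (CAT2), a cationic amino acid transporter like *SLC7A1*, was at 6.46, 1.99 and 4.06 RPKM (-1.32 and -0.56). *SLC7A7*, a light chain related to *SLC7A6*, was at 9.96, 9.37 and 7.04 RPKM (-0.08 and -0.45). *SLC1A3*, a glutamate transporter, was higher in both depleted libraries, at 0.891, 2.26 and 1.31 RPKM (0.79 and 0.29).

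Carriers of the lysosome and mitochondria were not lower as a list. Of 17 genes, 14 passed the level of 1 RPKM, with medians of 0.30 after si-RBCK1 #1 (9 higher, 5 lower) and -0.03 after si-RBCK1 #2 (6 higher, 8 lower), and 0 were at least 2-fold higher or lower in either. Without a limit on the level the medians were 0.14 and 0.03. *SFXN1*, the mitochondrial serine carrier, was at 24.0, 36.3 and 32.3 RPKM (0.58 and 0.42), *SLC25A22*, a mitochondrial glutamate carrier, at 16.1, 23.1 and 22.6 RPKM (0.49 and 0.46), and *SLC25A15*, the ornithine carrier, at 8.68, 17.6 and 10.96 RPKM (0.94 and 0.31). The list also held genes that were lower, such as *SLC25A29* (-0.91 and -0.23), *SLC36A1* (-0.32 and -0.27) and *CTNS* (-0.28 and -0.29).

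Genes through which mTORC1 senses amino acids had medians near those of all genes. Of 37 genes, 34 passed, with medians of -0.02 (17 higher, 17 lower) and 0.05 (19 higher, 15 lower), and the first was 0.04 without a limit on the level. *SESN1*, a sestrin that is also a p53 target, was at 2.68, 10.5 and 7.76 RPKM (log2 ratios 1.65 and 1.25), and was the 1 gene of the 34 at least 2-fold higher for each siRNA, a share near the 2.91% and 2.50% of all genes, with 0 at least 2-fold lower. *RHEB*, the small GTPase that activates mTORC1, was at 110, 79.2 and 65.98 RPKM (-0.47 and -0.73), *FNIP1*, a partner of folliculin, at 19.9, 10.8 and 12.8 RPKM (-0.82 and -0.60), and *RRAGD*, a Rag GTPase, at 3.42, 1.71 and 2.18 RPKM (-0.71 and -0.47). *RRAGA*, another Rag GTPase, was higher in both depleted libraries, at 35.3, 47.6 and 47.2 RPKM (0.42 and 0.41).

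Among 14 regulators and targets of the amino acid response, 11 were lower after si-RBCK1 #1 (median -0.21), against 48.4% of all genes, and 8 after si-RBCK1 #2 (median -0.33), against 46.4%. At least 2-fold lower were 3 of the 14 with each siRNA (*ASNS*, *TRIB3* and *PPP1R15A*), against 3.27% and 2.27% of all genes. Higher were 3 of the 14 after si-RBCK1 #1 and 6 after si-RBCK1 #2. Of the 14, 2 and 0 were at least 1.5-fold higher, against 12.1% and 11.3% of all genes. *ATF4* mRNA was at 134, 110 and 96.0 RPKM (-0.28 and -0.48), and *ASNS*, asparagine synthetase, at 88.6, 33.0 and 26.5 RPKM (-1.40 and -1.71). *MYC* was at 143, 124 and 126 RPKM (-0.20 and -0.18).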

How the data were processed

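The authors deposited 1 table with a value per gene and library, taken here as RPKM. Its header names no unit, and RPKM was inferred from low values being whole multiples of a step set by gene and library. With paired-end libraries a counted read may be a fragment. The submitters' processing notes name Trimmomatic, FastQC, TopHat2, HTSeq and hg19. The annotation is not given in the sources used here. The table's fold changes, p-values and q-values are the authors' own comparison and were not used, and 1 entry of another gene that is not a number was left out. Log2 ratios to si-Control were computed on log2(RPKM + 1) over the 12403 genes averaging 1 RPKM or more, with the 2-fold limit of the study's methods and a further limit of 1.5-fold. No p-value was computed, because each condition had 1 library. Library totals came from genes of up to 200 nt, and each gene's reads are the smallest whole numbers that its 3 values allow for a length within 50000 nt. This held for 10 of the 10 transporter genes and 441 of 448 list genes. Clopper-Pearson and Poisson intervals are 95%. The steps were tested on simulated data. The members, lists and limits were chosen with earlier results of these data known. Named outside the 10 genes are *RBCK1*, markers, and from each list up to 5 genes by the smaller of both log2 ratios in size, same sign, up to 3 by si-Control level, and the 3 genes nearest in ratio to 1 member. *SLC7A8*, *SLC7A10*, *SLC25A29*, *SLC36A1*, *CTNS* and overlapping genes were named after their values were seen. Alternatives were other pseudocounts, level limits, scalings, fold limits and reads alone. Protein comparison was not run. Scripts ran under Python 3.11.15 with matplotlib 3.10.9, scipy 1.17.1, pandas 2.3.3 and numpy 2.4.6.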

Additional observations from a re-analysis of the deposited data

How the results depend on the processing

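No paired analysis was possible because there was 1 library per group, and leaving out a library was not possible for the same reason. All log2 ratios of the 10 genes kept their sign under other pseudocounts, scalings and reads alone. Of 100 ratios, 71 moved by less than the counting interval reaches to either side of its middle. This measure is lenient for genes with few reads, whose intervals are wide. *SLC43A1* for si-RBCK1 #2 went from -0.28 to -0.85 with a pseudocount of 0.1 RPKM and is counted among the 71. The median of the 10 genes, -0.61 for si-RBCK1 #1 and -0.56 for si-RBCK1 #2, ran from -0.66 to -0.40 and from -0.66 to -0.46 over 6 alternatives each, and was closest to 0 with a pseudocount of 5 RPKM. Among these, the limit of an average of 5 RPKM or more (-0.43 and -0.58) left out *SLC1A4*, *SLC6A9* and *SLC43A1*. The median over the 9 genes that averaged 1 RPKM or more, not among these alternatives, was -0.79 and -0.58.

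The number of the 10 genes at least 2-fold lower for si-RBCK1 #1 and si-RBCK1 #2 changed along with that of all genes. With a pseudocount of 0.1 RPKM it was 4 and 1, where 730 and 522 of the 12403 genes were lower. On reads alone it was 4 and 2, against 6.19% and 4.48% of the genes with reads in every library. At a limit of 1.5-fold it was 5 and 4, against 11.6% and 9.32% of all genes. With equal total RPKM it was 2 for si-RBCK1 #1, where 472 of all genes were lower. At a limit of 4-fold it was 0, where 23 and 14 of all genes were lower.

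For all genes, those lower and higher for si-RBCK1 #1, then for si-RBCK1 #2, were 730, 616, 522 and 563 with a pseudocount of 0.1 RPKM, 105, 114, 97 and 101 with 5 RPKM, and 765, 626, 554 and 593 on reads alone. They were 1435, 1499, 1156 and 1400 at 1.5-fold, and 23, 24, 14 and 17 at 4-fold. With an average of 5 RPKM or more, 218 were lower and 237 higher for si-RBCK1 #1. For si-RBCK1 #2, 174 were lower and 217 higher. Fewer genes were tested at this limit, and the share called was not computed.

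*RBCK1* had log2 ratios of -1.73 (si-RBCK1 #1) with 0.1 RPKM, -1.36 and -1.15 with 5 RPKM, and -1.74 (si-RBCK1 #1) on reads alone. The mTORC1 median for si-RBCK1 #1 was 0.045 with no limit on the level and 0.025 with an average of 5 RPKM or more. The lysosomal and mitochondrial median for si-RBCK1 #2 was 0.027 and 0.170 under the same changes. The median of all solute carriers for si-RBCK1 #2 was -0.040 with equal medians and -0.025 with equal total RPKM. The cause was not tested. Genes with few reads, *SLC43A1* and *SLC6A9*, are limited by depth.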

Other observations

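Solute carriers as a whole had medians near 0. The table holds 374 protein-coding genes whose symbols start with SLC, the 10 transporter genes included, and 180 of them had an average of 1 RPKM or more. Their median log2 ratio was -0.02 after si-RBCK1 #1 and 0.0039 after si-RBCK1 #2, and the second became -0.040 with libraries scaled to equal medians and -0.025 with equal total RPKM. At least 2-fold lower were 6 after si-RBCK1 #1 and 4 after si-RBCK1 #2, shares near the 3.27% and 2.27% of all genes, and 2 were at least 2-fold higher with each, against 2.91% and 2.50%. *SLC22A15*, of the organic ion transporter family, was at 8.53 RPKM in si-Control cells, 2.28 RPKM after si-RBCK1 #1 and 2.48 RPKM after si-RBCK1 #2. *SLC39A11*, of the zinc transporter family, was at 10.5, 3.78 and 3.71 RPKM in the same order. *SLC25A10*, the mitochondrial dicarboxylate carrier, was higher in both depleted libraries, at 8.03, 23.4 and 28.4 RPKM, and *SLC9B2*, of the sodium-proton exchanger family, was at 1.66, 4.18 and 4.08 RPKM. The most abundant of the solute carriers, *SLC25A3* (221, 264 and 222 RPKM) and *SLC25A5* (204, 326 and 274 RPKM), carry phosphate and adenine nucleotides across the mitochondrial membrane.

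*SLC1A4* was the member with the largest difference by the smaller of both log2 ratios (-0.88 and -0.86). The protein-coding genes with an average of 5 RPKM or more nearest to it in both ratios were *FERMT2* (-0.88 and -0.88), *PAPD4* (-0.90 and -0.86) and *CCNB2* (-0.86 and -0.86), at distances of 0.0172, 0.0203 and 0.0230 on the log2 scale. The likeness rests on 2 ratios that share the si-Control library, and it depends on the pseudocount. On reads alone *SLC1A4* was at -1.05 (-1.18 to -0.92) and -1.03 (-1.17 to -0.90). *FERMT2* was at -0.92 and -0.92 on reads, *PAPD4* at -0.98 and -0.94, and *CCNB2* at -0.91 and -0.91. The distances are smaller than these counting intervals of *SLC1A4* are wide.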
